A study of Mus musculus with 2 samples.

Results

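Transcripts of 38 genes for DNA replication and S phase were counted in single cells of the mouse uterus. The genes were chosen by name, from the machinery that licenses, copies and repackages DNA, with earlier results of these data known. All 38 were among the 19070 genes measured. They fell into 10 groups by role, from origin licensing to the regulator E2f1. Endometrium was taken from pregnant mice on day 3 of pregnancy, at the morning hour given in the library names, and the cells were fixed before they were dissociated. There was 1 library of Erbb3 f/f females, the controls that carry the floxed gene, and 1 library of Erbb3 d/d females, which the labels describe as having lost Erbb3 from the stroma. The line that drives the deletion, the mice behind each library and their age are not given in the sources used here. With 1 library per genotype no test of genotype was possible, so every interval below covers counting error only, and genotype cannot be told apart from animal, preparation or library.

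Replication starts when the origin recognition complex, Cdc6 and Cdt1 load rings of Mcm proteins onto DNA in G1. In S phase Cdc45, Mcm10 and the GINS proteins turn each ring into a moving helicase, which polymerases, the Pcna clamp and its loader follow, while nucleotide and histone supply rise alongside. E2F transcription factors switch on most of these genes as cells enter the cycle. In the early pregnant mouse uterus the epithelium divides under estrogen and stops as progesterone rises, after which stromal cells divide.

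The promoters of these genes are shown first because some of them carry letters by which E2F factors are known to bind. Genes of mitosis, used below to place cells in the cycle, more often carry other letters. RefSeq promoters of build GRCm38.p6, from 250 bases before to 50 bases after a start, were found for 33 of the 38 genes. A search on both strands for TTTCGCGC, TTTGGCGC, TTTCCCGC and TTTGCCGC, called E2F-type here, matched 15 of the 38 promoters of these 33 genes (39.5%). The share was 2.26% over all 32851 promoters, 31.5% for 54 promoters of other replication genes and 4.76% for 42 promoters of mitotic genes. A CHR-type element (TTTGAA or TTCGAA, the cell cycle homology region of mitotic genes) was in 15.8% of the replication promoters, in 85.7% of the mitotic ones and in 19.2% of all. The CCAAT box was in 60.5%, 76.2% and 37.4% of the same sets. A match is a description of the letters and not a site of binding.

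The 120 bases before the start are given for 1 gene per role that held an E2F-type match there, each read 5′ to 3′ on the strand of the gene with the match in capitals. Orc1 lies at chr4:108579334-108579453 (plus strand), Mcm6 at chr1:128359706-128359825 (minus strand), Gins3 at chr8:95633439-95633558 (plus strand), Rfc3 at chr5:151651209-151651328 (minus strand) and Dtl at chr1:191575545-191575664 (minus strand). In Mcm6 the first run of capitals is a pair of matches that overlap on opposite strands. Kif11, a spindle motor gene, lies at chr19:37376262-37376381 (plus strand) and is given for contrast, with its CHR-type match in capitals.
Orc1: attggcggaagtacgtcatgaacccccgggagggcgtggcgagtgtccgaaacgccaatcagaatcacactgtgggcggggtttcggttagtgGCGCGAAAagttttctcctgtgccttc
Mcm6: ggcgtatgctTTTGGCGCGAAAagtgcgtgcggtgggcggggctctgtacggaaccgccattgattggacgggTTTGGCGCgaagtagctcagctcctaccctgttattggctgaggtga
Gins3: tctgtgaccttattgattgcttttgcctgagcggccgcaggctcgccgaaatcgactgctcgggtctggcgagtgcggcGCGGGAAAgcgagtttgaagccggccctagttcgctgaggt
Rfc3: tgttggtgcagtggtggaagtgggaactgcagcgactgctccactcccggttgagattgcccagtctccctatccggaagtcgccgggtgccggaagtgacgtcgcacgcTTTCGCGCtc
Dtl: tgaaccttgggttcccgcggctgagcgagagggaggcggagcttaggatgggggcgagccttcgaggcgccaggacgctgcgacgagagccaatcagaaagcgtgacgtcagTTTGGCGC
Kif11: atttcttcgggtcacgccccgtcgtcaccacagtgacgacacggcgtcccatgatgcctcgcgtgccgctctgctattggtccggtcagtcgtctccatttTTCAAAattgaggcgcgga
In the bases shown, the match nearest the start lay 27 bases before it in Orc1, 47 in Mcm6, 41 in Gins3, 10 in Rfc3 and 8 in Dtl. The CHR-type match of Kif11 lay 19 bases before the start, and Kif11 had no E2F-type match in the bases shown. Gins3 also held a CHR-type match (TTTGAA) in the bases shown. It is in lower case because only E2F-type matches were put in capitals in the replication genes.

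**Figure D1:**
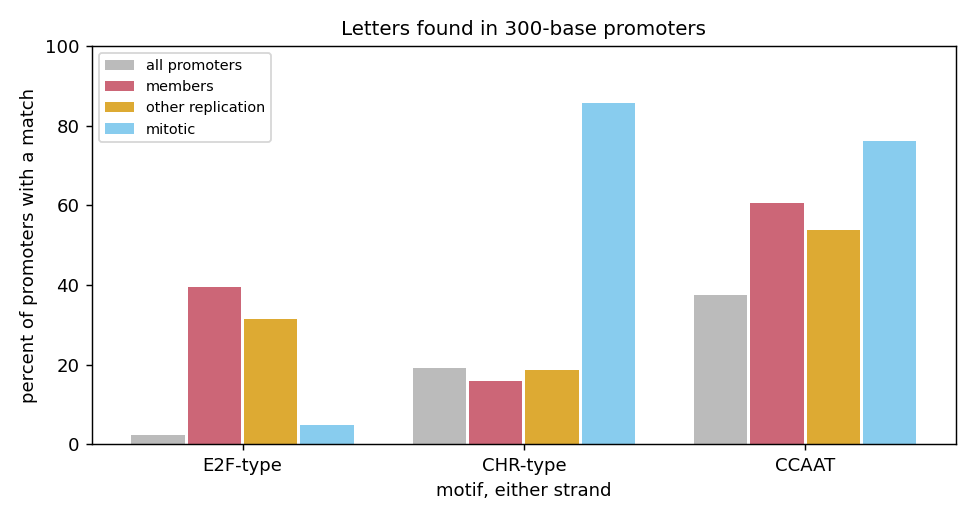
Bars give the percent of RefSeq promoters that hold at least 1 match to a motif on either strand (vertical axis, from 0), for 3 motifs (horizontal axis) and 4 sets of promoters (colours). The E2F-type letters were in 39.5% of the replication promoters and the CHR-type letters in 85.7% of the mitotic ones.

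Depth was low in both libraries, and it sets what can be said of any gene. After the filters on genes and mitochondrial RNA, 5503 of 5783 f/f barcodes and 1830 of 2125 d/d barcodes were used as cells. Their medians were 809 (f/f) and 764.5 (d/d) unique molecular identifiers (UMIs, counts of captured probe pairs). The barcodes left out held 1301796 of 6819591 UMIs in f/f and 1154167 of 2866862 UMIs in d/d, a larger share in d/d. No full barcode occurred in both libraries, while 158 barcodes shared their first 16 bases. Cells were assigned to classes by marker UMIs in each cell, and a class is a gate, not a sorted population. In epithelial-gated cells (2158 f/f and 750 d/d) all 15 epithelial markers were found in both libraries, summing to 4334 and 4539 CPM (counts scaled to a common total, here all UMIs of the class), and stromal markers summed to 461 and 395 CPM. The median epithelial-gated cell held 4 UMIs of its own markers and 0 of other classes in both libraries, and 508 f/f and 182 d/d cells sat at the minimum of 2 UMIs. In stromal-gated cells (1403 and 326) epithelial markers summed to 423 and 635 CPM, and the mitochondrial share of UMIs had a median of 1.09% and 2.33%. Erbb3 itself had 15 and 2 UMIs in stromal-gated cells, 12.8 and 7.99 CPM, too few to check the label. In epithelial-gated cells it had 167 and 35 UMIs (75.9 and 49.9 CPM), lower in d/d outside the stromal gate too. In cells that passed no gate it had 69 and 7 UMIs (58.5 and 15.98 CPM). Those cells are mixed, with 3607 and 3074 CPM of stromal markers and 1794 and 1685 CPM of epithelial ones.

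In epithelial-gated cells the replication genes were higher in the d/d library, nearly all of them together. Their 3744 f/f UMIs made 1702 CPM (95% interval 1648 to 1758), and their 2527 d/d UMIs made 3605 CPM (3466 to 3748). The log2 ratio, here and below always d/d against f/f, was 1.08 (1.01 to 1.16). All 38 genes had at least 20 UMIs over both libraries, their median log2 ratio was 1.13, and 36 were higher in d/d. Of all 10246 genes with as many UMIs 48.7% were higher in d/d, and their median was -0.02. At least 2-fold higher were 23 of 38, where 7.25% of all genes were, and none was 2-fold lower, where 7.43% of all genes were. The counting interval lay above 0 for 31 of 38 and for 18.2% of all genes, and below 0 for none of 38 and for 15.6% of all genes.

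Licensing genes stood lowest as a group, with a median log2 ratio of 0.57 and 1 of 5 at least 2-fold higher. Orc1, the largest subunit of the origin recognition complex, had 35 f/f and 11 d/d UMIs, or 15.9 and 15.7 CPM, a log2 ratio of -0.02. Orc6, another subunit and the licensing gene with most UMIs, had 139 and 60 UMIs, 63.2 and 85.6 CPM, its log2 ratio being 0.44 (-0.02 to 0.88). Cdc6, which brings the helicase to the origin complex, had only 19 and 9 UMIs (8.64 and 12.8 CPM, log2 ratio 0.57). Cdt1, its partner in loading, stood apart from the other 4 in value, since it had 39 and 44 UMIs, 17.7 and 62.8 CPM, its log2 ratio being 1.82. Gmnn, the inhibitor of Cdt1 that is present from S phase to mitosis, had 59 and 34 UMIs at 26.8 and 48.5 CPM, a log2 ratio of 0.85. Of this group, the intervals of Cdt1 and Gmnn lay above 0 and those of Orc1, Orc6 and Cdc6 included it.

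The 6 subunits of the Mcm2-7 helicase ring were all higher in d/d, each with an interval above 0, and their log2 ratios ran from 0.85 to 2.16. Mcm7 had most UMIs, 343 and 197 (156 and 281 CPM), and the lowest log2 ratio of the 6, 0.85 (0.59 to 1.11). Mcm5 had the highest ratio of all 38 genes, 2.16, on 21 and 30 UMIs (9.55 and 42.8 CPM). Mcm4, with 32 and 28 UMIs, stood at 14.5 and 39.9 CPM and 1.46 on the log2 scale. The other subunits lay close to 2-fold: Mcm2 had 82 and 54 UMIs (37.3 and 77.0 CPM, log2 ratio 1.05), Mcm3 had 112 and 80 (50.9 and 114.1 CPM, 1.16), and Mcm6 had 87 and 55 (39.6 and 78.5 CPM, 0.99).

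Genes that activate the ring were higher in d/d as well, with a median log2 ratio of 1.18 over 5 genes. For Cdc45, a subunit of the active helicase and the one with most UMIs, 66 and 30 UMIs gave 30.01 and 42.8 CPM and a ratio (log2) of 0.51 (-0.16 to 1.16). For Mcm10, which helps the ring to open and move, 42 and 41 UMIs gave 19.1 and 58.5 CPM, a ratio of 1.61. Among the GINS subunits, Gins2 had the second highest ratio of the 38, 2.04, on 13 and 17 UMIs (5.91 and 24.2 CPM). Gins1 had 47 and 34 UMIs, 21.4 and 48.5 CPM and a ratio (log2) of 1.18, and Gins3 had 39 and 22 UMIs, 17.7 and 31.4 CPM and 0.82. The intervals of Cdc45 and Gins3 reached 0 or below.

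All 5 polymerase subunits were higher in d/d, and their 5 intervals lay above 0. Pola2, the regulatory subunit of polymerase alpha, had 236 and 149 UMIs, 107 and 213 CPM, its log2 ratio being 0.99 (0.68 to 1.29). Pola1, the catalytic subunit of the same enzyme, had 182 and 142 UMIs at 82.8 and 203 CPM, or 1.29. Prim1, the primase that starts each strand, was the lowest at 0.71, with 94 and 49 UMIs (42.7 and 69.9 CPM). The catalytic subunits of the strand-copying enzymes were near each other, Pold1 (polymerase delta) at 1.11 on 232 and 160 UMIs (105 and 228 CPM) and Pole (polymerase epsilon) at 1.17 on 53 and 38 UMIs (24.1 and 54.2 CPM).

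The sliding clamp and 3 subunits of its loader had similar log2 ratios, between 0.76 and 1.24. Pcna, the clamp, had 87 and 60 UMIs, 39.6 and 85.6 CPM and a ratio (log2) of 1.11 (0.61 to 1.60). The loader subunit Rfc3 had 84 and 60 UMIs (38.2 and 85.6 CPM, 1.16), Rfc4 had 64 and 48 (29.1 and 68.5 CPM, 1.24), and Rfc5 had 50 and 27 (22.7 and 38.5 CPM, 0.76). Both enzymes that finish Okazaki fragments were at least 2-fold higher in d/d. Lig1, the ligase that seals the fragments, had 81 and 76 UMIs, 36.8 and 108 CPM and a ratio of 1.56 (1.09 to 2.03). Fen1, the nuclease that trims their flaps, had 30 and 22 UMIs, 13.6 and 31.4 CPM and 1.202.

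Nucleotide supply genes ran from -0.20 to 1.65 on the log2 scale. Rrm2, the cycle-regulated small subunit of ribonucleotide reductase, had 214 UMIs in each library, 97.3 CPM in f/f and 305.3 CPM in d/d, a log2 ratio of 1.65 (1.37 to 1.93). Rrm1, the large subunit of the same enzyme, had 175 and 77 UMIs at 79.6 and 109.8 CPM, a ratio of 0.47 with an interval of 0.06 to 0.86. The intervals of these partners did not overlap. In the thymidine pathway, Tk1, the salvage kinase, stood at 1.17 on 89 and 64 UMIs (40.5 and 91.3 CPM), and Tyms, which makes thymidylate anew, at -0.20 on 94 and 26 UMIs (42.7 and 37.1 CPM). Tyms and Orc1 were the only 2 of the 38 that were not higher in d/d, and the intervals of both included 0.

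Chromatin genes were all higher in d/d. Slbp, which binds the stem-loop of histone messages, had most UMIs of all 38 genes, 417 and 296 (190 and 422 CPM), its log2 ratio being 1.16 (0.94 to 1.37). Chaf1a, the large subunit of the histone chaperone CAF-1, had 197 and 133 UMIs, 89.6 and 190 CPM and 1.08, while its partner Chaf1b had 21 and 10 UMIs (9.55 and 14.3 CPM, 0.58) and an interval that included 0. Uhrf1, which reads hemimethylated DNA behind the fork, had 50 and 31 UMIs at 22.7 and 44.2 CPM, or 0.96. Of the checkpoint genes, Clspn (claspin, a mediator of the replication checkpoint) had 64 and 52 UMIs, 29.1 and 74.2 CPM and a ratio of 1.35 (0.79 to 1.90). Dtl, the adaptor that marks Cdt1 for destruction in S phase, had 20 and 21 UMIs, 9.09 and 29.96 CPM and 1.72. E2f1, the regulator, had 35 and 26 UMIs, 15.9 and 37.1 CPM and a ratio of 1.22 (0.43 to 1.99).

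**Figure D2:**
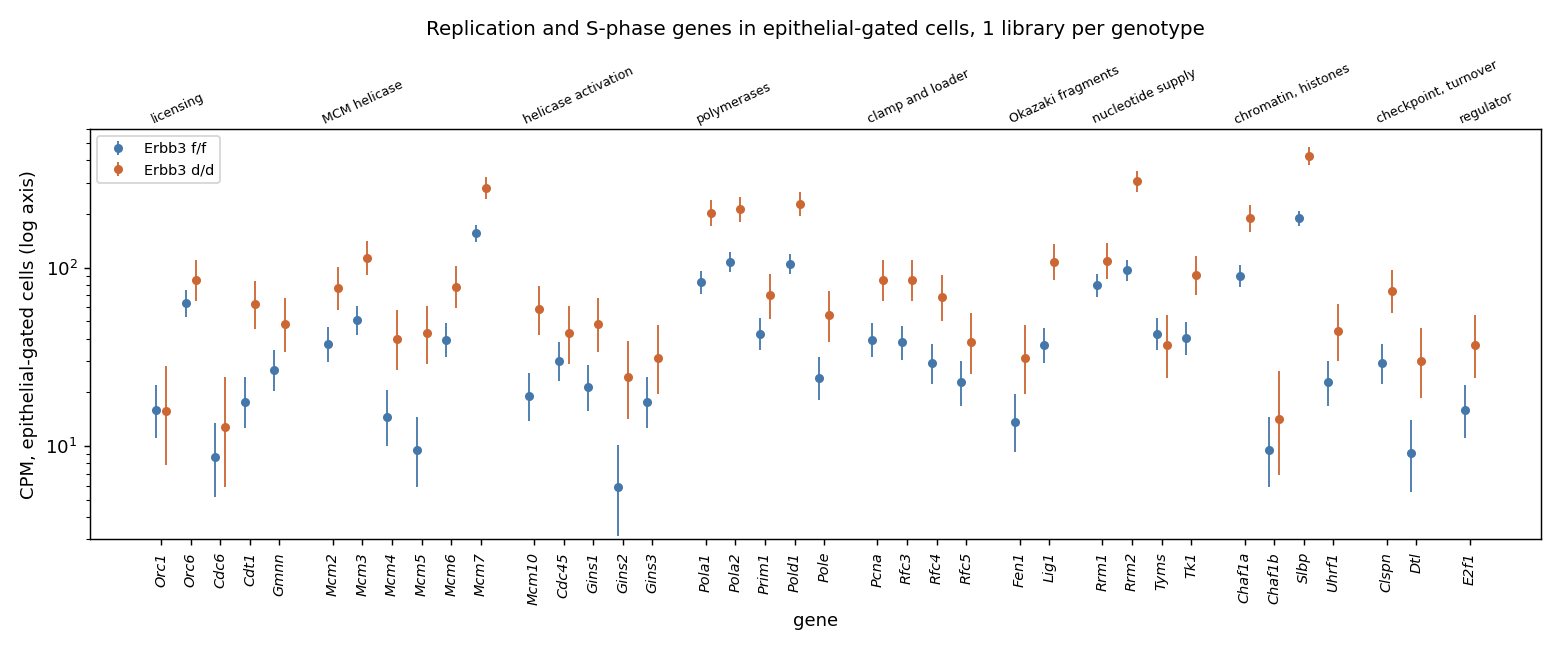
Points give CPM in epithelial-gated cells (log axis) for each of the 38 genes, in f/f (blue) and d/d (orange), with exact 95% Poisson intervals as bars, grouped by role. The d/d point lies above the f/f point for 36 genes, with Tyms and Orc1 the exceptions.

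The other genes of the pathway followed in part. Of 58 further replication genes, all with at least 20 UMIs, 51 were higher in d/d, where 48.7% of all genes were. At least 2-fold higher were 26 and 2-fold lower 1, where 7.25% and 7.43% of all genes were. Intervals lay above 0 for 39 and below 0 for 2, where 18.2% and 15.6% of all genes had them. The median log2 ratio was 0.87. Among the 34 with at least 100 UMIs the highest were Ccne2 (cyclin E2, log2 ratio 1.73), Chtf18 (of an alternative clamp loader, 1.72) and Pold2 (a polymerase delta subunit, 1.63). The lowest were Donson (-0.44), Orc4 (-0.44) and Mcm9 (-0.39). Orc4 is a subunit of the same origin complex as Orc1 and Orc6, and its interval, -0.75 to -0.14, lay below 0. The mitotic list was higher in d/d throughout, with a median of 1.23 over 47 of 48 genes that had 20 UMIs. Of these 47, 39 were at least 2-fold higher, where 7.25% of all genes were. Intervals lay above 0 for 44 of them, where 18.2% of all genes had one there. Kif11 (1.78), Sgo1 (1.67) and Cdca8 (1.58), which act in spindle assembly and chromosome cohesion or attachment, were the highest, and Knl1 (0.31), Melk (0.41) and Plk1 (0.61) the lowest. The replication genes therefore had 40.3 UMIs per 100 mitotic UMIs (38.8 to 41.8) in the f/f library, against 36.4 (34.8 to 38.1) in the d/d library. With all deposited barcodes the numbers were close, 42.8 in f/f and 42.5 in d/d.

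More epithelial-gated cells held a UMI of these genes in d/d, and those cells held more of them. With every cell thinned to 500 UMIs, 891 of 2155 f/f cells (41.3%, 39.3 to 43.5) and 480 of 749 d/d cells (64.1%, 60.5 to 67.5) had at least 1, a difference of 22.7 percentage points (18.6 to 26.8). Without thinning the shares were 58.0% and 78.8%, at median depths of 869 and 830 UMIs. Cells with at least 1 replication UMI held a mean of 1.89 (f/f) or 2.79 (d/d), and cells with 6 or more were 2.04% and 7.74%. The lowest share of any class with over 50 cells per library, in mesothelial-gated cells, was 29.0% in f/f (median depth 742 UMIs) and 43.2% in d/d (822 UMIs), so a share of that size can be present outside dividing epithelium and RNA set free from other cells was not tested as its source. Mitotic UMIs were in 31.8% (f/f) and 69.7% (d/d) of epithelial-gated cells, and UMIs of both lists in 18.4% and 49.1%. Whether both lists met in a cell more often than their separate shares would give was not tested. Replication UMIs without mitotic ones were in 22.9% and 14.95%.

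**Figure D3:**
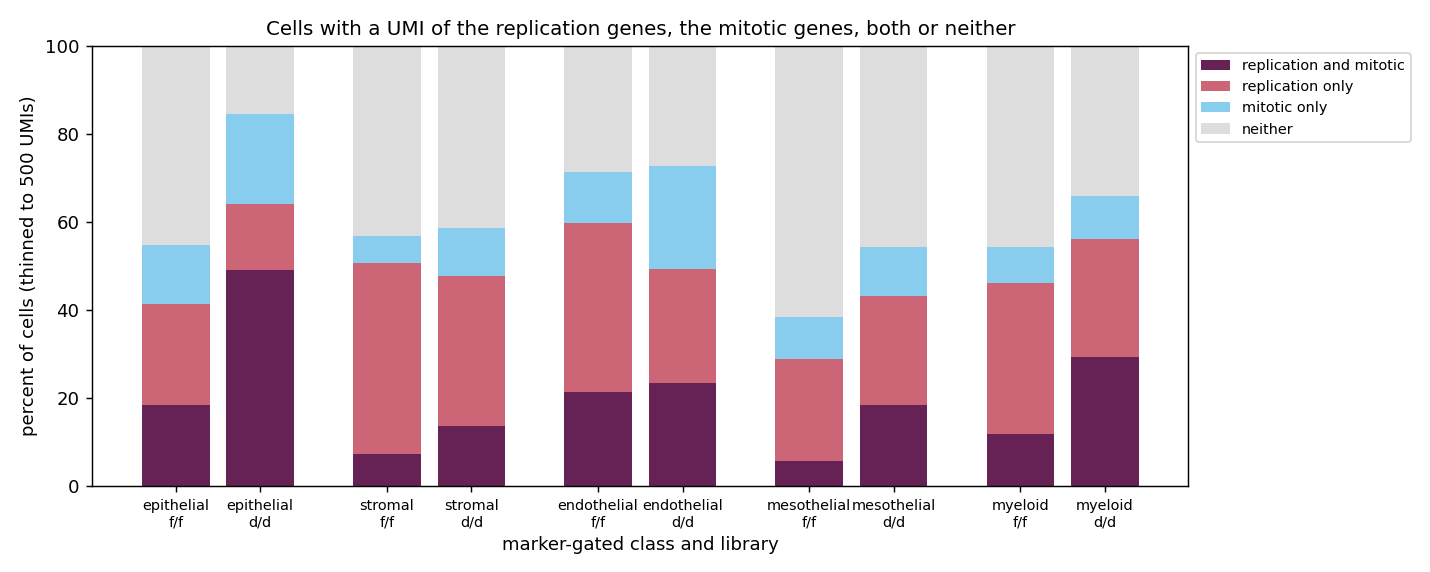
Stacked bars give the percent of cells, thinned to 500 UMIs, with at least 1 UMI of the 38 replication genes and of the 48 mitotic genes, of only 1 of these lists, or of neither, for 5 classes and both libraries (f/f left, d/d right in each pair). Cells with both made 18.4% and 49.1% of epithelial-gated cells, and 7.32% and 13.8% of stromal-gated cells.

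Cells were then placed in the cycle by genes outside the 38, to ask whether the difference lay in the number of cycling cells or in their levels. A cell was called mitotic-high from 3 mitotic UMIs after thinning. Such cells were 380 of 2155 in f/f (17.6%) and 416 of 749 in d/d (55.5%), with 42 and 35 cells exactly at the cut and 41 and 26 cells 1 UMI below it. Their median depth was 1261.5 (f/f) and 932 (d/d) UMIs, against 832 and 713 UMIs in the other cells, called mitotic-low. The levels by state use all UMIs of these cells, before thinning. Within mitotic-high cells the replication genes were nearly level, at 3633 CPM in f/f and 3774 CPM in d/d, a log2 ratio of 0.05 (-0.04 to 0.15). Of 34 genes with 20 UMIs there, 20 were higher in d/d, where 49.7% of all genes were, and their median log2 ratio was 0.09. None of them was 2-fold higher in d/d, where 4.71% of all genes were. Slbp had an interval above 0 (160 and 184 UMIs, log2 ratio 0.47), where 10.7% of all genes did. The intervals of Rrm1 (128 and 58 UMIs, -0.87) and Rfc5 (37 and 15 UMIs, -1.03) lay below 0, where 9.98% of all genes did. Over 9 alternatives the summed log2 ratio in mitotic-high cells ran from -0.059 to 0.16. With classes from clusters it was 0.16 (0.08 to 0.24), or 0.13 (0.05 to 0.22) where a cluster needed a 2-fold lead. With a looser gate it was 0.12 (0.02 to 0.22). Those intervals lay above 0, and in the other alternatives the interval included 0.

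Within mitotic-low cells, 1775 f/f and 333 d/d cells, the difference was wider than over all epithelial-gated cells. The summed level was 1105 CPM in f/f and 3343 CPM in d/d, a log2 ratio of 1.60 (1.48 to 1.71). With classes from clusters it was 1.84, and 2.63 where a cluster was named only from a 2-fold lead of its class. All 33 genes with 20 UMIs there were higher in d/d, where 49.9% of all genes were, and 27 were at least 2-fold higher, where 7.28% of all genes were. Intervals lay above 0 for 25 of 33 and for 11.7% of all genes, and below 0 for none of 33 and for 8.94% of all genes. Rrm2 had 46 and 50 UMIs in these cells (27.4 and 185 CPM, log2 ratio 2.76), Tk1 12 and 19 (7.15 and 70.4 CPM, 3.30) and Mcm5 9 and 15 (5.37 and 55.6 CPM, 3.37). Dtl had only 7 and 12 UMIs there and fell under the minimum. Tyms, with 68 and 11 UMIs, was the lowest of the 33, at 40.5 and 40.8 CPM (log2 ratio 0.0082). Mitotic UMIs were also higher in the d/d mitotic-low cells, at 515 and 1186 CPM, and the replication genes made 215 and 282 UMIs per 100 mitotic UMIs there, against 22.4 and 24.5 in mitotic-high cells.

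Within each library, mitotic-high and mitotic-low cells were then set against each other. In f/f, 30 of 36 replication genes were at least 2-fold higher in mitotic-high than in mitotic-low cells, where 6.66% of all genes were, with a median log2 ratio of 1.86. In d/d, 6 of 34 were, where 6.37% of all genes were, with a median of 0.03. Cells high in other replication genes (at least 4 UMIs) and low in mitotic genes made up 3.30% (f/f) and 8.28% (d/d) of the epithelial gate. They held 5453 and 8831 CPM of the 38 genes. The cut uses genes of the same pathway, and whether these cells were in S phase was not tested. Cells low in both lists were 79.1% and 36.2%, and in these the replication genes stood at 919 and 2023 CPM. Cells high in the mitotic list alone held 2379 and 2648 CPM, and cells high in both 7122 and 6524 CPM. The states were cut on sparse counts, so a cell low in both lists need not be outside the cycle.

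**Figure D4:**
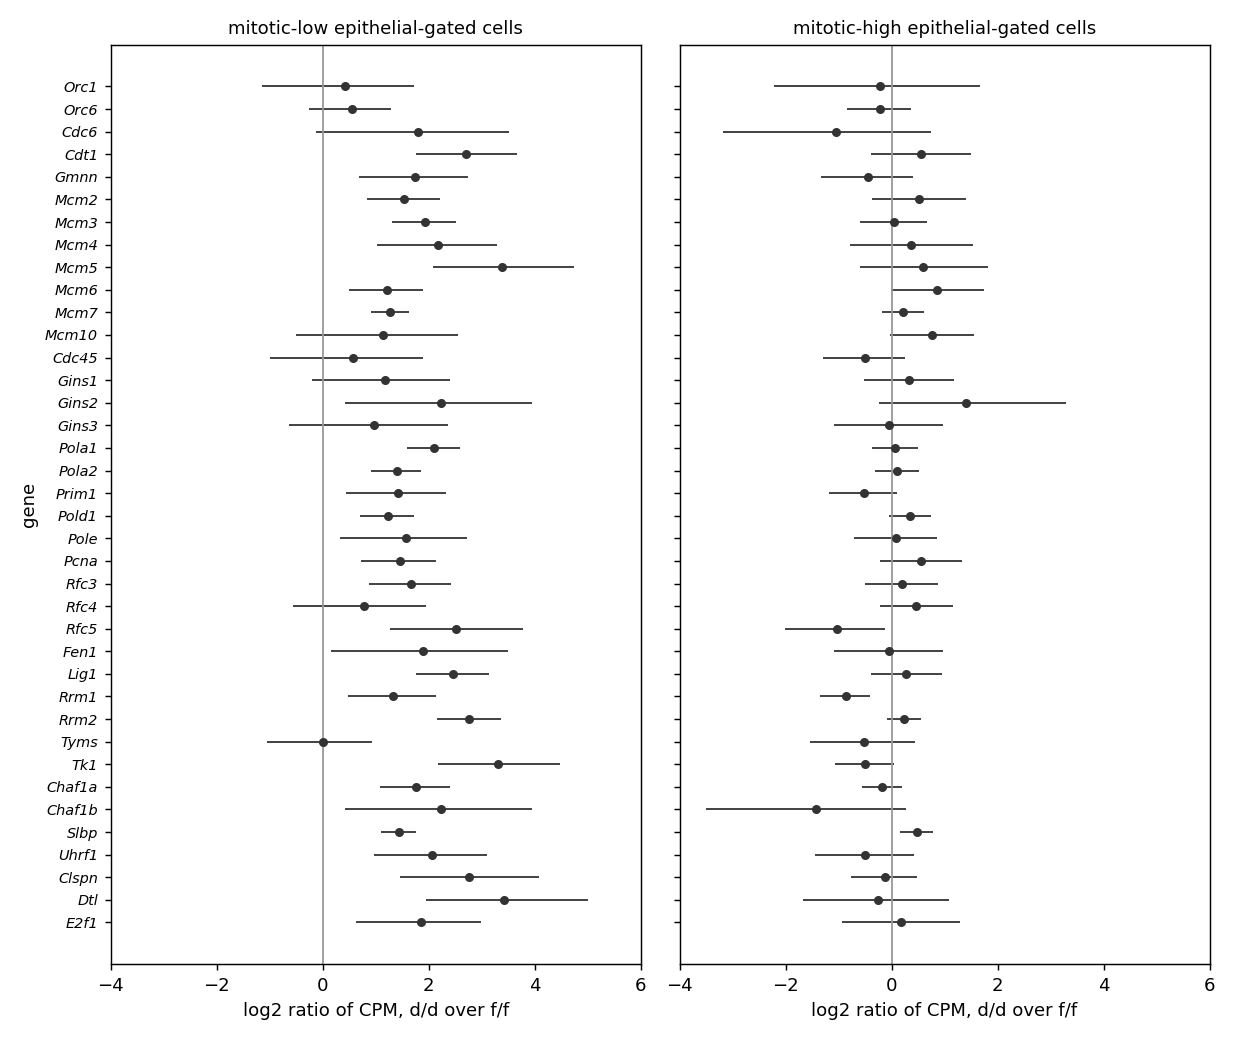
Points give the log2 ratio of CPM, d/d over f/f, for each of the 38 genes in mitotic-low (left) and mitotic-high (right) epithelial-gated cells, with exact 95% counting intervals and a line at 0. Points of mitotic-low cells lie at or right of the line, up to 3.41 for Dtl, and those of mitotic-high cells scatter around it.

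Within the epithelium the replication genes were also compared by subtype gate, and differences between gates were not tested. The gates used subtype genes that themselves differed between the libraries, so their sizes are not compared. In cells that passed none of the 4 gates (1059 f/f, 655 d/d) the summed log2 ratio was 1.08 (0.99 to 1.17). In cells of the gland gate (Foxa2, Syn2 and 7 other gland genes, 192 and 16 cells) it was 1.58 (1.14 to 2), from 1155 and 3448 CPM, the lowest f/f level of the 5 groups. Cells with Ltf or Clca3b (56 and 35) stood at 0.77 (0.40 to 1.13). In cells with Lrp2 or Slc5a11 (827 and 24) the replication genes were at 1724 and 2208 CPM, 0.36 (-0.08 to 0.76), while the mitotic genes were lower in d/d, at 4549 and 2429 CPM, a log2 ratio of -0.91 (-1.32 to -0.52). In cells with Muc4 or Ptpn22 (24 and 20) the replication ratio was 0.14 (-0.48 to 0.75) and the mitotic ratio 1.48. The last gates rest on 50 and 45 replication UMIs in d/d. With a subtype gate of 1 UMI the values were 1.03 in no gate, 1.48 in the gland gate, 0.92 for Ltf or Clca3b, 0.62 (0.36 to 0.87) for Lrp2 or Slc5a11 and 0.95 (0.67 to 1.24) for Muc4 or Ptpn22. Over 9 alternatives the Lrp2 or Slc5a11 value ran from 0.38 to 1.02, each above the value given first, the Muc4 or Ptpn22 value from -0.40 to 0.95 and the Ltf or Clca3b value from 0.15 to 1.17.

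In the stroma, the tissue from which Erbb3 was deleted per the labels, the replication genes were close in both libraries. Stromal-gated cells held 1918 and 475 UMIs of them, 1630 and 1898 CPM, a log2 ratio of 0.22 (0.07 to 0.37). Of 25 genes with 20 UMIs, 2 were at least 2-fold higher in d/d (Rrm2 and Tk1), where 5.55% of all genes were, and none was 2-fold lower, where 7.93% were. No interval lay below 0, where 8.12% of all genes had one there. The median was 0.04, against -0.06 over all 9549 genes. Intervals above 0, which 8.28% of all genes had, were those of Rrm2 (33 and 23 UMIs, 1.71), Chaf1a (67 and 26, 0.87) and Orc6 (55 and 21, 0.84). Mcm7, with most UMIs, was level at 274 and 268 CPM (-0.03, interval -0.43 to 0.35), as were Pola1 (150 and 144 CPM, -0.06) and Pold1 (138 and 140 CPM, 0.01). The share of stromal-gated cells with a replication UMI was 50.7% in f/f and 47.9% in d/d, a difference of -2.87 points (-9.00 to 3.31).

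The mitotic genes of stromal-gated cells did differ, at 490 and 1622 CPM, so that the replication genes made 333 (f/f) and 117 (d/d) UMIs per 100 mitotic ones, compared with 40.3 and 36.4 in the epithelium. With classes from clusters the stromal numbers were 561 and 283. Epithelial markers moved with this: in stromal-gated cells they stood at 9.77% of their epithelial-gated level (f/f) or 14.0% (d/d). Mitotic UMIs per 100 epithelial marker UMIs were 116 and 255 in stromal-gated and 97.5 and 218 in epithelial-gated cells. Replication UMIs per 100 epithelial marker UMIs were 385 and 299 in stromal-gated and 39.3 and 79.4 in epithelial-gated cells. With the epithelial share taken off, f/f cells kept 1464 CPM of the replication genes and d/d cells 1393 CPM, and the log2 ratio was -0.071 where it had been 0.22. The same step left the mitotic genes at 76.7 CPM in f/f and 236 CPM in d/d. It took off too much in some other classes, as given below, so the stromal values after it are not firm either. The source of these UMIs was not tested. When classes came from clusters in place of the gate, the log2 ratio of the replication genes was -0.16 (-0.37 to 0.04). The direction in the stroma thus depended on how its cells were defined.

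Other classes held fewer cells, and the endothelium went the other way. In endothelial-gated cells (277 and 77) the replication genes stood at 2915 CPM in f/f, the highest f/f level of any class, and 2249 CPM in d/d, a log2 ratio of -0.37 (-0.62 to -0.13), while mitotic genes were higher in d/d at 1921 and 3834 CPM. Epithelial markers stood at 33.1% (f/f) and 24.2% (d/d) of their epithelial-gated level in these cells, and the mitochondrial share had a median of 1.94% and 3.88%. Of 17 replication genes with 20 UMIs there 3 were higher in d/d (Rrm2, Slbp and Pold1), where 45.1% of all genes were, and the median log2 ratio was -0.43, against -0.07 over all genes. None of the 17 was 2-fold higher, where 4.1% of all genes were, or had an interval above 0, where 3.99% did. At least 2-fold lower were 4 of 17 (Mcm2, Rrm1, Lig1 and Clspn), where 11.9% of all genes were. Only the interval of Mcm2, with 25 f/f UMIs and 0 d/d UMIs, lay below 0, where 4.72% of all genes did. Mesothelial-gated cells (226 and 82) had 1015 and 1953 CPM, a log2 ratio of 0.94 (0.66 to 1.23). Myeloid-gated cells (186 and 82) stood at 0.57 (0.30 to 0.83), muscle or pericyte-gated cells (155 and 37) at 0.51 (0.14 to 0.87), and lymphoid-gated cells (20 and 20) at 0.78 (0.34 to 1.23). In these classes epithelial markers reached between 27.4% and 38.5% of their epithelial-gated level. With that share taken off, the replication genes stood at 535 and 794 CPM in mesothelial-gated and 1070 and 1726 CPM in lymphoid-gated cells, still higher in d/d, but at 976 and 926 CPM in myeloid-gated and 1068 and 914 CPM in muscle or pericyte-gated cells, where the direction turned. In d/d the same step left the mitotic genes at -1120 (mesothelial), -954 (muscle or pericyte), -461 (myeloid) and -352 CPM (lymphoid). In f/f it left them at -267 CPM in mesothelial-gated cells and above 0 in the others. A level below 0 cannot occur, so the step took off too much there. The replication values after it are therefore not firm in these classes. Cells that passed no gate (1078 and 456) had 1729 and 3599 CPM, close to the epithelial values in both libraries.

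**Figure D5:**
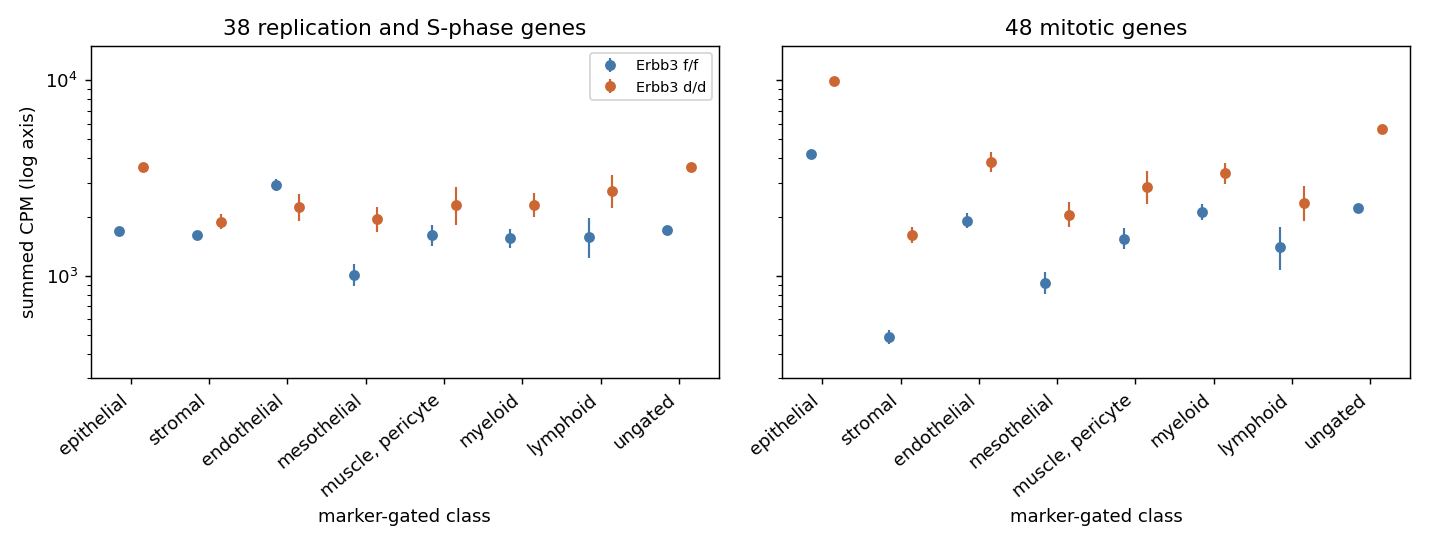
Points give the summed CPM (log axis) of the 38 replication genes (left) and of the 48 mitotic genes (right) by marker-gated class, in f/f (blue) and d/d (orange), with exact 95% Poisson intervals where wider than the point. The d/d level of the replication genes is above the f/f level in every class but the endothelial one, where it is 2249 against 2915 CPM. The stromal, myeloid and muscle or pericyte differences turned when the epithelial share was taken off. In d/d myeloid and muscle or pericyte-gated cells that step left mitotic levels below 0.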

How the data were processed

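The authors deposited raw UMI counts of each gene in each barcode, with no normalisation. Per the file headers Cell Ranger 9.0.0 wrote them. The submitters' processing notes list the builds mm10 and GRCm39 with no role, so no coordinates were taken from the counts. The assay was Chromium Flex, per the labels' protocols, in which probe pairs report each gene, so levels are compared for 1 gene between groups and not between genes. Probe chemistry and version are named in more than 1 way in the labels.

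Barcodes with at least 200 genes and at most 10% mitochondrial UMIs were used. Each cell was given a class from 7 marker lists: at least 2 marker UMIs, an enrichment of at least 0.5 of the pooled rate for that list, and 2-fold more enrichment than the next class. These thresholds were set after marker counts had been seen. Subtype gates needed 2 UMIs and 2-fold more than the next. UMIs were summed per gene, class and library and divided by all UMIs of the class (CPM). A gene entered a summary with at least 20 UMIs over both libraries. Sums have exact Poisson intervals, shares exact Clopper-Pearson intervals and ratios exact conditional binomial intervals, all at 95% and for counting error only. Differences of shares combine the bounds of both shares in quadrature. Where a count was 0, a bound was taken from 3 counts. Shares and cycle states used cells thinned at random to 500 UMIs. No doublet caller was run. Leaving out the 5% of cells with the most UMIs was tried in its place, beside other cell filters, gates, Leiden clusters, totals, minimums and cuts. A cluster took the name of a class whose markers led the next 1.5-fold. This had been 2-fold, and was lowered after the clusters and the values they gave had been seen, which brought 1 cluster (661 f/f and 296 d/d cells) into the epithelium. Values under both rules are given.

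The 38 genes, the comparison lists and the markers were chosen with earlier results of these data known. Named genes were all 38, and, of the other replication and mitotic genes with at least 100 UMIs, the 3 highest and 3 lowest log2 ratios. Promoters shown were those with most UMIs per role among genes with an E2F-type match in the 120 bases before the start. Bases after the start are transcribed and were not printed. Kif11 was added later from the named mitotic genes, as the only 1 of them for which a CHR-type match was found in those 120 bases. The calculations were tested on simulated data. Tools were Python 3.11.15, numpy 2.4.6, scipy 1.17.1, scanpy 1.11.5, leidenalg 0.10.2 and matplotlib 3.10.9. Promoter sequences came from RefSeq (GRCm38.p6).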

Additional observations from a re-analysis of the deposited data

Results flagged for a closer look

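The summed replication genes went in opposite directions in the endothelium and the epithelium. The log2 ratio (d/d against f/f) was -0.37 in endothelial-gated cells and 1.08 in epithelial-gated cells, with counting intervals on opposite sides of 0. The difference between the classes was not tested, since each genotype has 1 library. The endothelial value rests on 166 UMIs from 77 d/d cells and ran from -0.77 to -0.28 over 11 alternatives.

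Mcm2, a subunit of the helicase ring, showed the same opposition, which was likewise not tested. Of the 17 replication genes summarised in endothelial-gated cells, Mcm2 alone had a counting interval below 0. That share, 5.88%, was close to the 4.72% of all genes with such an interval, so Mcm2 does not stand out from them. Its UMIs in endothelial-gated cells numbered 25 (f/f) and 0 (d/d), with a counting interval of the log2 ratio that lay below -0.695. With 3 counts in place of the 0 the log2 ratio was -1.10. In epithelial-gated cells its log2 ratio was 1.05.

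Barcodes left out by the filters on genes and mitochondrial RNA also carried the replication genes. The 295 d/d barcodes left out held 2152 CPM of them (2068 to 2239), and the 280 f/f barcodes held 1113 CPM (1056 to 1172). Their median mitochondrial shares were 14.8% and 15.9%.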

How the results depend on the processing

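Over 19 results and their alternatives, 123 values stayed within the counting interval of the reported value, 56 moved outside it and 3, whose reported interval excluded 0, turned in direction. The median log2 ratio of the replication genes has no counting interval of its own. The width of the interval of their summed ratio was set around it. Every alternative kept the epithelial log2 ratios of the replication, other replication and mitotic genes above 0 and the endothelial one below 0. The cause of the moves was not tested.

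Sign changed 11 times in all. The 3 changes of values whose interval excluded 0 were all in the stroma: the summed log2 ratio was -0.16 with Leiden clusters under both naming rules and -0.071 with the epithelial share taken off, the latter an alternative added after the data were seen. The stricter gate gave 0.063 there. The other 8 were of values whose interval included 0: the stromal share difference 4 times (0.11 to 4.57 points), mitotic-high cells 2 times (-0.059 and -0.022), and the Muc4 or Ptpn22 gate 2 times (-0.40 and -0.15).

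With all deposited barcodes the epithelial median was 1.009, the other replication genes 0.68, the mitotic genes 1.04, mitotic-high cells -0.059, mitotic-low cells 1.46 and the gland gate 1.12, and the replication UMIs per 100 mitotic UMIs were 42.8 in f/f and 42.5 in d/d. Without the 5% of cells with the most UMIs the mitotic genes were at 1.43 and the f/f number per 100 mitotic UMIs was 45.5.

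With the stricter gate the epithelial median was 1.06, the numbers per 100 mitotic UMIs 36.7 (f/f) and 33.6 (d/d), the stromal one 367 in f/f, the Ltf or Clca3b gate 1.17 and the endothelium -0.65. With the looser gate the epithelial sum was 1.2, the other replication genes 0.82, the mitotic genes 1.29, d/d per 100 mitotic UMIs 38.9, the stromal one 135.1, the stromal share difference 4.41 points, mitotic-low cells 1.73 and cells in no subtype gate 1.198.

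With Leiden clusters the epithelial sum was 1.23, its median 1.23, the other replication genes 0.88, the mitotic genes 1.29, d/d per 100 mitotic UMIs 38.8, the stromal ones 561 (f/f) and 283 (d/d), the epithelial share difference 27.0 points, mitotic-high cells 0.16, mitotic-low cells 1.84, cells in no subtype gate 1.19 and the Lrp2 or Slc5a11 gate 0.82. Naming clusters by a 2-fold lead, the first rule tried, gave an epithelial sum of 1.296, a median of 1.23, other replication genes 0.98, mitotic genes 1.397, 35.4 (f/f) and 33.04 (d/d) per 100 mitotic UMIs, the same stromal values, a share difference of 32.2 points, mitotic-low cells 2.63, no subtype gate 1.23, Ltf or Clca3b 0.15 and Lrp2 or Slc5a11 1.02. Thinning to 1000 UMIs gave a stromal share difference of 4.57 points. Without Mki67 and Top2a the numbers per 100 mitotic UMIs were 45.1 (f/f), 40.4 (d/d) and 380 in f/f stroma. Taking off the epithelial share gave -0.77 in the endothelium. A subtype gate of 1 UMI, added after the data were seen, gave 0.95 for Muc4 or Ptpn22.

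Leaving out barcodes that share their first 16 bases, also added later, kept all 19 values within their intervals. No paired analysis was possible because each genotype has 1 library. At medians of 809 and 764.5 UMIs per cell most single genes are absent from most cells, and a 2-fold difference of a gene with about 20 UMIs is often not detectable.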
